A study of Mus musculus with 12 samples.

Results

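Genes of the surrogate light chain and of early B-cell development were examined in splenic B lymphocytes of 3 groups of mice. The set holds 10 genes, chosen by symbol from the 24982 gene symbols of the coverage files: Vpreb1, Vpreb2, Vpreb3, Igll1, Rag1, Rag2, Dntt, Il7r, Cd24a and Cd93. All 10 had a row in each of the 12 libraries. Polyadenylated RNA came from B lymphocytes of mice aged 6 weeks, with 4 libraries (biological replicates 1 to 4) for each genotype. WT mice are given as C57BL/J6. Eμ-Myc mice carry a Myc transgene driven by the enhancer of the immunoglobulin heavy-chain locus, and the strain of both transgenic groups is not given in the sources used here. The last group, Eμ-Myc; PRPS2 KO (the knockout group below), carries the same transgene, so its Eμ-Myc controls carry it too, and lacks PRPS2. That enzyme supplies phosphoribosyl pyrophosphate, from which nucleotides are built. How the PRPS2 allele was made, whether mice were pooled and how B cells were purified are not given in the sources used here.

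Developing B cells build their receptor in order. RAG1 and RAG2 together cut the antigen receptor genes, terminal transferase (Dntt) adds bases at the joints, and a newly made heavy chain is first tested on a surrogate light chain made of VPREB and lambda 5 (Igll1) before a true light chain exists. Interleukin 7, through its receptor chain IL7R, sustains progenitor B cells in mice. These genes are mostly used in the bone marrow, and a mature follicular B cell of the spleen has largely shut off Rag1, Rag2, Igll1 and Vpreb1, while CD24 and CD93 are high on immature and transitional B cells.

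Values are the deposited coverage per gene divided by 1 scaling factor per library, called scaled coverage here. Read depth per value is unknown, so errors are the SD between 4 libraries. A gene was tested where scaled coverage reached 1 in at least 4 of the 8 libraries compared, and 9 of the 10 genes met this in each comparison, Vpreb2 being too low. A gene was called at an adjusted p under 0.05 in limma, adjusted over all genes tested. The labels check out on the altered genes: mean Prps2 in WT, Eμ-Myc and knockout libraries was 128, 245 and 16.9, and mean Myc 278, 1904 and 2211. The labelled cell type was checked too, and the 8 pan-B markers used (Cd79a, Pax5 and others) were at least 1 in every library. RNA of other cells was present as well: T-cell markers summed to 916 to 5324 in WT, to 199 to 285 in Eμ-Myc, and to 62.6 to 1267 among knockout libraries. The 11 myeloid markers summed to 8652 to 26867 in WT, 5959 to 17483 in Eμ-Myc and 1309 to 16442 in the knockout group, and the pan-B markers to 8104 to 14868, 8577 to 10990 and 7220 to 9075. Knockout libraries 3 and 4 stood apart from 1 and 2. Their Fcer2a (CD23, a mature B-cell receptor) was at 3.49 and 2.53 against 1035 and 838, and log2 values of all genes correlated at 0.99 within each of these pairs but at 0.88 to 0.92 across them. In bulk RNA, fewer cells of a type and less RNA per cell cannot be told apart, and this holds for every value given here.

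Vpreb1 and Vpreb2 encode nearly the same protein, so which of them is read matters. A stretch shared by their RefSeq (GRCm38.p6) promoter windows is shown because it differs at only 2 of 106 bases, written in capitals.
Vpreb1: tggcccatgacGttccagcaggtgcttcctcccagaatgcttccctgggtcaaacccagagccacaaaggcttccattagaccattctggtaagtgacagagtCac
Vpreb2: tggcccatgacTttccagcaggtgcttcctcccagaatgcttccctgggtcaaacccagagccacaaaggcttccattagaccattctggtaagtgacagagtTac
The first lies at chr16:16869256-16869361 on the minus strand and the second at chr16:17980315-17980420 on the plus strand. In the GENCODE M21 annotation the Vpreb1 stretch lies partly in an exon of a noncoding Vpreb1 transcript, and the Vpreb2 stretch lies before the annotated gene. The likeness goes on in the transcripts: 420 of 429 aligned coding bases were identical (97.9%), and 32.8% of the 50-base words of the Vpreb2 transcript also occurred in Vpreb1. How reads shared by both genes were treated is not given in the sources used here, so the split between them is uncertain.

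Vpreb1 was low in WT and higher in every Eμ-Myc library. Its scaled coverage in WT libraries 1 to 4 was 0.66, 0.76, 0.38 and 1.37, in Eμ-Myc 2.73, 3.17, 6.12 and 8.83, and in the knockout group 3.22, 1.25, 3.06 and 2.43. The Eμ-Myc and WT libraries did not overlap, and Eμ-Myc libraries 3 and 4 were the highest of all 12. Vpreb1 rose in Eμ-Myc against WT by 2.06 on the log2 scale (SE 0.38, limma adjusted p 0.00149). Top3b, which shares 9.01% of the exonic bases of Vpreb1 on the opposite strand, averaged 85.0 in WT and 74.3 in Eμ-Myc. Vpreb2 was listed at 0 in all 4 WT libraries, at 0.18 and 0.10 in Eμ-Myc libraries 2 and 3, and at 0.31 and 0.11 in knockout libraries 1 and 4. The other libraries were at 0 as well, and these values are near the smallest step of the files.

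Igll1, the lambda 5 chain that pairs with VPREB, lies at chr16:16860671-16863985 beside Vpreb1 at chr16:16868403-16870843, both on the minus strand (GENCODE M21), and followed a like order. WT libraries 1 to 4 held 0.66, 0.28, 0.29 and 1.26, Eμ-Myc libraries 2.26, 3.62, 8.26 and 10.8, and knockout libraries 4.37, 2.71, 4.54 and 4.33. As for Vpreb1, Eμ-Myc libraries 3 and 4 stood highest and no Eμ-Myc library reached down to WT. The increase in Eμ-Myc against WT was 2.45 (log2, SE 0.47, limma adjusted p 0.00202). Summed erythroid markers were 135, 87.5, 518 and 272 in Eμ-Myc libraries 1 to 4, so libraries 3 and 4 were highest there too. Within WT they were highest in library 4, at 868, as were Vpreb1 and Igll1, and their part was not tested. For both genes the WT values lie near the pseudocount of 0.5, so the size of the change depends on it: with 0.1 and 2 it was 2.53 and 1.30 for Vpreb1, and 3.09 and 1.53 for Igll1.

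Vpreb3 is a relative of VPREB that binds heavy chains in the endoplasmic reticulum and, unlike Vpreb1 and Igll1, stays on in later B cells. Its mean scaled coverage placed it above 97.7% of all gene symbols in WT and above 99.4% in Eμ-Myc. WT libraries 1 to 4 held 297, 712, 459 and 310, Eμ-Myc libraries 1212, 1891, 1228 and 1398, and knockout libraries 822, 882, 1478 and 1358. Every transgenic library lay above every WT library, and knockout libraries 1 and 2 lay below the Eμ-Myc range while 3 and 4 lay within it. Vpreb3 rose in Eμ-Myc by 1.76 (log2, SE 0.28, limma adjusted p 7.30e-04), from 444 ± 193 to 1432 ± 317 (SD, n = 4 each).

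**Figure D1:**
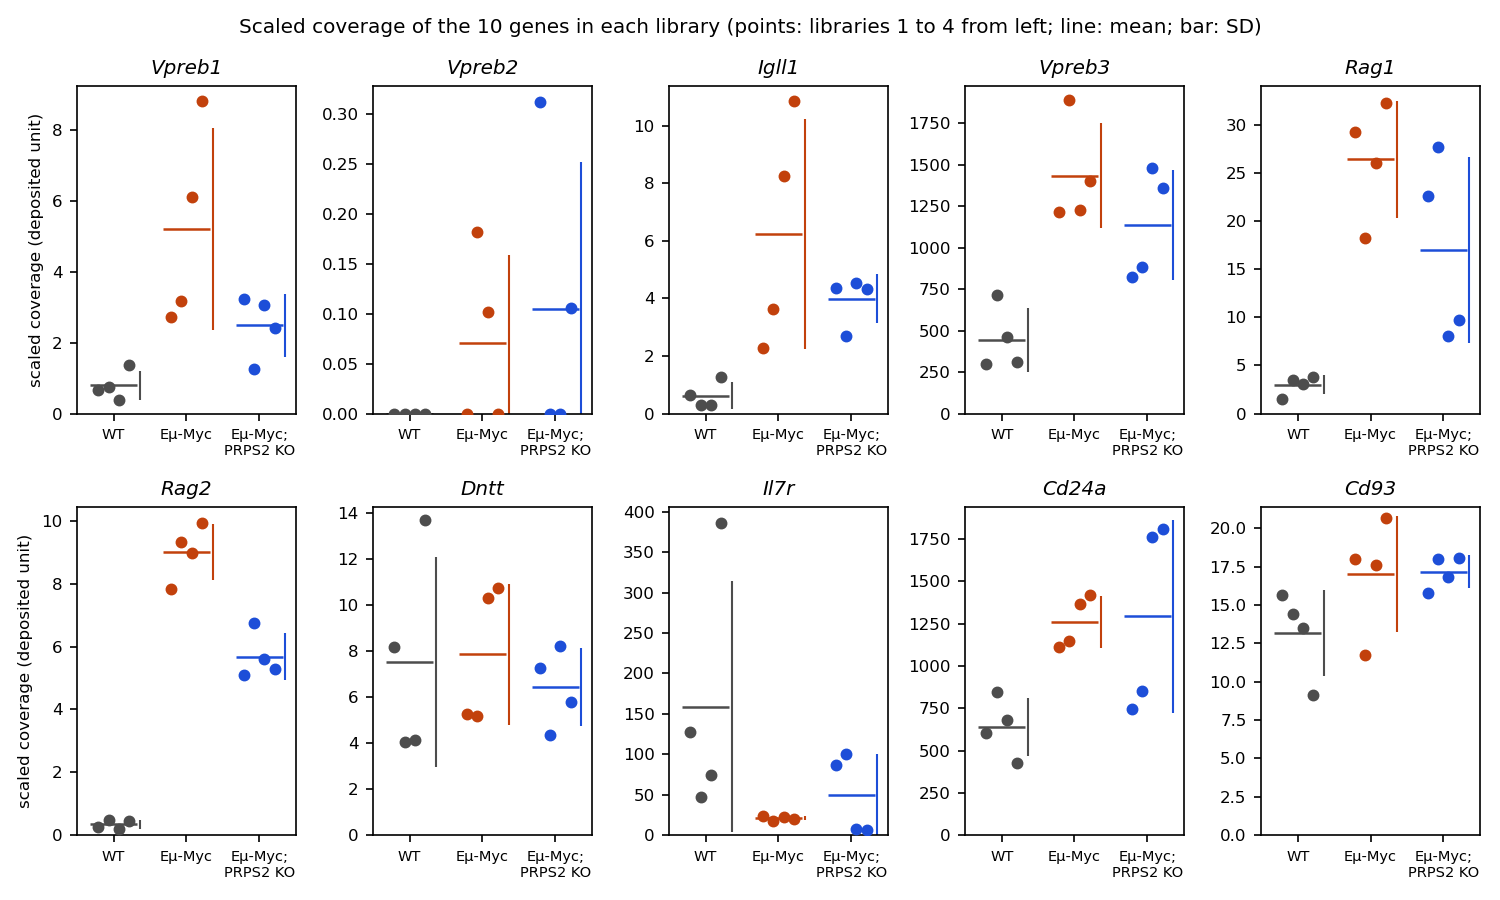
Scaled coverage (vertical axis, deposited unit) of each of the 10 genes in libraries 1 to 4 of WT, Eμ-Myc and the knockout group, with the mean as a line and the SD as a bar that ends at 0 where it would go below. Rag2 shows 3 separate levels with means of 0.342, 9.02 and 5.68, while Il7r, Rag1, Cd24a and Vpreb3 split the knockout group into libraries 1 and 2 and libraries 3 and 4.

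Rag2, the partner subunit of the recombinase, had the largest increase of the set with the pseudocount of 0.5. It was at 0.25, 0.47, 0.19 and 0.46 in WT libraries 1 to 4, at 7.83, 9.33, 8.98 and 9.95 in Eμ-Myc, and at 5.10, 6.76, 5.60 and 5.28 in the knockout group. The 3 groups did not overlap. Rag2 rose by 3.51 in Eμ-Myc against WT (log2, SE 0.19, limma adjusted p 3.21e-06), and pseudocounts of 0.1 and 2 gave 4.42 and 2.23. With 2 the increase of Rag1, at 2.51, was the larger.

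Rag1, the catalytic subunit, held 1.56, 3.49, 3.08 and 3.77 in WT libraries 1 to 4, 29.2, 18.2, 26.0 and 32.3 in Eμ-Myc, and 22.6, 27.7, 8.03 and 9.71 in the knockout group. Every transgenic library was above WT, and the knockout group fell into a pair within the Eμ-Myc range and a pair below it. The increase in Eμ-Myc against WT was 2.98 (log2, SE 0.27, limma adjusted p 2.84e-05). The ratio of Rag1 to Rag2 was 6.33 to 16.0 in WT, 1.95 to 3.73 in Eμ-Myc, and 4.43, 4.09, 1.43 and 1.84 in knockout libraries 1 to 4. It was lower in Eμ-Myc than in WT, with an exact two-sided permutation p of 0.0286, the smallest that 4 against 4 libraries can give, and so it was in the knockout group against WT (exact permutation p 0.0286). The WT ratio rests on deposited Rag2 values between 0.2 and 0.5 with 1 decimal, so rounding alone moves it widely.

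The recombinase genes are convergent neighbours on chromosome 2 (GENCODE M21: Rag1 at chr2:101638282-101649501 on the minus strand, Rag2 at chr2:101624718-101632529 on the plus strand). B230118H07Rik runs through both. It overlaps 6.07% of the exonic bases of Rag2 on the opposite strand and 1.21% of those of Rag1 on the same strand. Its scaled coverage averaged 7.56 ± 2.02 for WT, 12.1 ± 1.35 for Eμ-Myc and 8.28 ± 0.676 for the knockout libraries (SD, n = 4), so it moved in the same order as Rag2 but over a narrower range. The libraries were directional, but whether counting used the strand is not given in the sources used here, and the share of this gene in the Rag2 values was not tested.

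The windows of 250 bases before the RefSeq start of Igll1, Rag1 and Rag2 (GRCm38.p6) are shown because these genes differed between the groups together, with matches to 5 motifs in capitals.
Igll1: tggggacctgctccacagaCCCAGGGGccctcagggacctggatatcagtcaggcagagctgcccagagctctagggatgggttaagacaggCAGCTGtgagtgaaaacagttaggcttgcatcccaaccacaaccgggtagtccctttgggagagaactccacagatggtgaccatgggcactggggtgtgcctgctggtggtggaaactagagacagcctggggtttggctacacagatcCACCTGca
Rag1: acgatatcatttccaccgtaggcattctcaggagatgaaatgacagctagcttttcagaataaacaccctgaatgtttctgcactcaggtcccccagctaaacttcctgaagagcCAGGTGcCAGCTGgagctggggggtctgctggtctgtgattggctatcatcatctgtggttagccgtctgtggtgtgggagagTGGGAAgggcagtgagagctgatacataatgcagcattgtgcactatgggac
Rag2: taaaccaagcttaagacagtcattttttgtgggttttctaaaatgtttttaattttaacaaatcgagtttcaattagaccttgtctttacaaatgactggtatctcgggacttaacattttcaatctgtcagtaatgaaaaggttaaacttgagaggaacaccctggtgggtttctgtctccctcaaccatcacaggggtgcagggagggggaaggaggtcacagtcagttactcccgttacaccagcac
They lie at chr16:16863986-16864235 (minus strand), chr2:101649533-101649782 (minus strand) and chr2:101624462-101624711 (plus strand). The motifs, searched on both strands, were CACGTG (the E-box bound by MYC with MAX), CAGGTG and CAGCTG (E-boxes of the kind bound by E2A), CCCNNGGG (the core bound by EBF1) and TGGGAA (the core bound by Ikaros). No 2 matches in these 3 windows overlapped. Of 32851 promoter windows of the same length, 6.02% held CACGTG, 17.2% CAGGTG, 13.0% CAGCTG, 11.8% CCCNNGGG and 21.6% TGGGAA. Windows were found for 8 of the 10 genes, all but Cd24a and Cd93, and CAGGTG occurred in 4 of them (Vpreb1, Vpreb2, Igll1 and Rag1), where the matches of Vpreb1 and Vpreb2 lie in the stretch they share and are 1 sequence rather than 2. CACGTG occurred in none of the 8, and Rag2 held none of the 5 motifs, which says only that these letters are not in these windows.

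Dntt, the terminal transferase, did not follow the recombinase. WT libraries 1 to 4 held 8.19, 4.06, 4.14 and 13.7, Eμ-Myc libraries 5.28, 5.16, 10.3 and 10.7, and knockout libraries 7.28, 4.37, 8.24 and 5.81. The groups overlapped over most of their range. The difference of Eμ-Myc from WT was 0.15 (log2, SE 0.41, 95% interval -0.78 to 1.08, limma adjusted p 0.770), smaller than the spread between libraries.

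Il7r, the signalling chain of the interleukin 7 receptor, went the other way. It held 128, 46.7, 74.6 and 386 in WT libraries 1 to 4, 24.0, 17.2, 22.4 and 20.3 in Eμ-Myc, and 87.0, 99.98, 7.29 and 5.70 in the knockout group. Eμ-Myc lay below all WT libraries within a narrow range, and the knockout group had libraries both within the WT range and below the Eμ-Myc range. Il7r fell by 2.43 in Eμ-Myc against WT (log2, SE 0.55, limma adjusted p 0.00519). With all 12 libraries in 1 fit the same difference had an adjusted p of 0.0517 and was no longer called.

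Il7r is also a receptor of T cells, and T-cell markers moved with it. All 13 T-cell markers and all 9 NK-cell markers tested were called lower in Eμ-Myc against WT, with median log2 fold changes of -3.08 and -2.17. None of the 13 was at 0 in every library of a group, and Cd3e was at 0.53 and 0.63 in knockout libraries 3 and 4 against 49.7 and 72.0 in libraries 1 and 2. Across the 12 libraries Il7r spanned 67.7-fold and the T-marker sum 85.0-fold, while Il7r stayed between 5.10% and 11.5% of that sum. WT library 4 held the highest value of both. The ratio of Il7r to Cd3e was 1.16 to 1.54 in WT and 1.73 to 2.98 in Eμ-Myc, so Il7r differed less than Cd3e did (exact two-sided permutation p 0.0286). In knockout libraries 1 to 4 it was 1.75, 1.39, 13.8 and 9.0, so Il7r was lower in libraries 3 and 4 by less than Cd3e was. How much of the Il7r signal came from T cells was not tested.

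**Figure D2:**
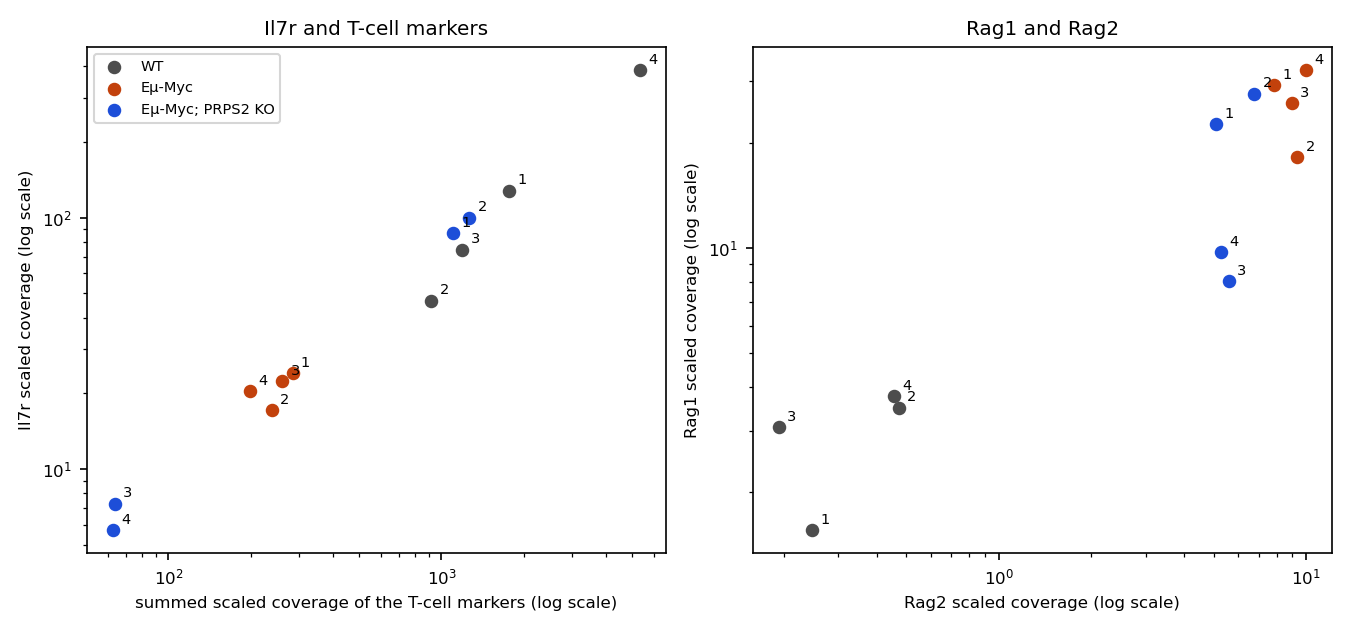
Left, Il7r scaled coverage against the summed scaled coverage of 13 T-cell markers, and right, Rag1 against Rag2 scaled coverage, with 1 point per library, replicate numbers beside the points and both axes logarithmic. Il7r lies between 5.10% and 11.5% of the T-marker sum in all 12 libraries, and knockout libraries 3 and 4 lie lowest on the left and below the other transgenic libraries in Rag1 on the right.

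Cd24a encodes CD24, a surface protein that is high on immature B cells. It held 606, 844, 678 and 425 in WT libraries 1 to 4, 1110, 1148, 1364 and 1418 in Eμ-Myc, and 747, 853, 1763 and 1812 in the knockout group. Eμ-Myc lay above WT without overlap, knockout library 1 lay within the WT range, and knockout library 2 just above it. Cd24a rose in Eμ-Myc by 1.02 (log2, SE 0.20, limma adjusted p 0.00199). Cd93, a marker of transitional B cells, held 15.6, 14.4, 13.5 and 9.14 in WT, 18.0, 11.8, 17.6 and 20.7 in Eμ-Myc, and 15.8, 18.0, 16.8 and 18.1 in the knockout group. Its groups overlapped between Eμ-Myc and WT, and the difference of 0.36 (log2, SE 0.22, 95% interval -0.13 to 0.85) had a limma adjusted p of 0.188.

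In Eμ-Myc against WT, 7 of the 9 genes tested were called, 6 higher and Il7r lower, where 55.8% of the 12704 genes tested were called, 29.1% higher and 26.7% lower. The same 7 genes were those whose groups did not overlap, against 52.1% of all genes. Rag2 was under 1 in all 4 WT libraries, and Vpreb1 and Igll1 in 3 of 4, so these genes were tested only because the transgenic libraries were higher, which favoured a call as higher. The other 6 genes reached 1 in every WT library, and of these Vpreb3, Rag1 and Cd24a were called higher and Il7r lower. The 7 calls held when any 1 of the 8 libraries was left out.

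The knockout group was compared with Eμ-Myc to see whether loss of PRPS2 touches genes that the transgene moves. None of the 9 genes tested was called with limma, where 0.00798% of 12535 genes were called (Prps2 alone), and each had an adjusted p of 1.00. At an unadjusted p under 0.05 there was 1 of the 9, Rag2, against 124 of all genes. Vpreb1 was under 0.05 too with same-numbered libraries taken as pairs (unadjusted limma p 0.0485) and with all 12 libraries in 1 fit (0.0468). No member was called after adjustment in either fit. Rag2 was 5.68 ± 0.748 here and 9.02 ± 0.891 in Eμ-Myc (SD, n = 4), a difference of -0.62 (log2, SE 0.17, 95% interval -1.005 to -0.24, unadjusted limma p 0.00516, exact permutation p 0.0286). It was the only one of the 9 whose libraries did not overlap between the 2 groups, as was so for 1.43% of all genes.

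Without pairing, the other differences from Eμ-Myc were within the spread between libraries. They were -0.86 for Vpreb1 (95% interval -1.79 to 0.08), -0.39 for Igll1 (-1.43 to 0.65), -0.36 for Vpreb3 (-0.91 to 0.19) and -0.77 for Rag1 (-1.71 to 0.17) on the log2 scale. Dntt differed by -0.23, Cd24a by -0.07 and Cd93 by 0.04, and the interval of Cd93 was the tightest of these 3 (-0.38 to 0.46). Il7r had a difference of 0.26 with an interval from -1.91 to 2.42, since its knockout libraries lay on both sides of Eμ-Myc.

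Part of that spread is the split between knockout libraries 3 and 4 and the others. The T-marker sum was 1103 and 1267 in libraries 1 and 2 and 63.6 and 62.6 in 3 and 4, and the myeloid sum 16442 and 12046 against 2969 and 1309. Left out together, an alternative chosen after the values were seen, they took the Rag1 difference from Eμ-Myc to -0.05, Cd24a to -0.65, Vpreb3 to -0.73 and Il7r to 2.13. No conclusion is drawn from these 4, since the choice of libraries fixes the direction of each shift. The libraries left out are the low ones of the group for Rag1 and Il7r and the high ones for Cd24a and Vpreb3. Rag2, which did not split this way, stayed at -0.57 (limma adjusted p 0.0952), and no member besides Il7r was called in this fit, where 3.53% of all genes were. The part of other cell types in these shifts was not tested.

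**Figure D3:**
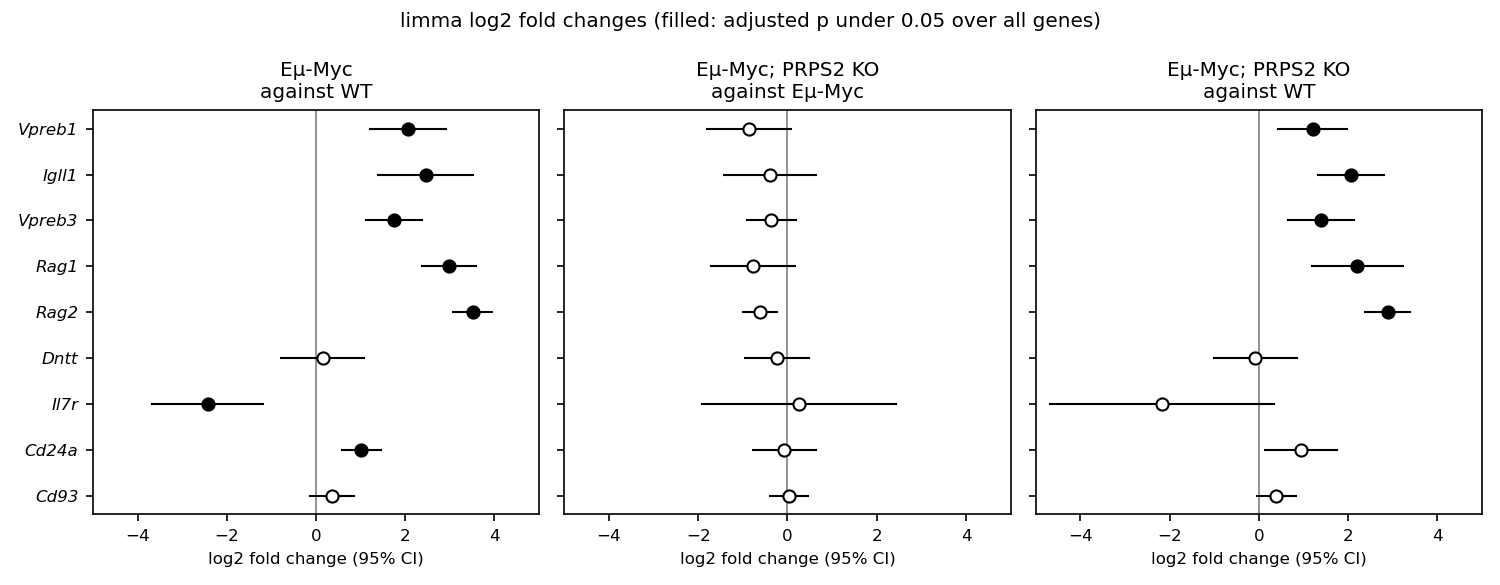
Log2 fold changes (horizontal axis, with 95% intervals) of the 9 genes tested in the 3 comparisons, filled where the limma adjusted p over all genes was under 0.05. Filled points number 7 for Eμ-Myc against WT, 0 for the knockout group against Eμ-Myc, then 5 for the knockout group against WT.

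Against WT, the knockout group had 5 of 9 genes called, all higher, where 30.7% of 12692 genes were called and 19.7% were called higher. Of the 5, Rag2, Igll1 and Vpreb1 again met the filter only through the transgenic libraries, so the count is no measure against that share. This comparison shares its WT libraries with the one above and its knockout libraries with the other, so the 3 are not independent. Rag2 rose by 2.89 (log2, SE 0.22, limma adjusted p 0.00176), Rag1 by 2.20 (SE 0.45, 0.0166), Igll1 by 2.06 (SE 0.32, 0.00938), Vpreb3 by 1.40 (SE 0.32, 0.0231) and Vpreb1 by 1.21 (SE 0.34, 0.0357). Vpreb1 overlapped with WT in knockout library 2, at 1.25 against 1.37 in WT library 4. Rag1, Rag2, Igll1, Vpreb3 and Cd93 did not overlap, 5 genes, against 38.2% of all genes. Cd24a at 0.95 (adjusted p 0.0671), Cd93 at 0.39 (0.120, exact permutation p 0.0286), Dntt at -0.08 (0.875) and Il7r at -2.17 (0.137) were not called. Leaving out single libraries took Il7r here from -2.83 to -1.49. Without knockout libraries 3 and 4, the low ones of the group, Il7r was at -0.30.

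Some of these 5 calls were lost when single libraries were left out. Rag2 and Igll1 stayed called whichever library was left out. Both met the filter only through the transgenic libraries, which favoured a call as higher, so their calls are not ranked as firmer. Rag1 was lost without WT library 3 (limma adjusted p 0.0517). Vpreb3 was lost without WT library 1, 3 or 4 (0.0603, 0.0611 and 0.0546) or knockout library 3 or 4 (0.0636 and 0.0677), and Vpreb1 without WT library 1, 2 or 3 (0.0820, 0.0822 and 0.0895) or knockout library 3 or 4 (0.0955 and 0.0920). Cd24a was gained without knockout library 1, at 1.17 (0.0230). Without knockout library 3 or 4 it was at 0.76 and 0.75 (0.166 and 0.167), and without both at 0.37. Without knockout libraries 3 and 4 together, 3 genes were called, Igll1 at 1.90, Rag1 at 2.93 and Rag2 at 2.94, where 1525 of 12692 genes were. That pair was chosen after the values were seen and holds the low Rag1 libraries of the group, so the larger Rag1 value follows from leaving it out and is no sign of firmness.

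The genes that work with these members were read from lists, beside the shares of all genes called higher and lower, 29.1% and 26.7% in Eμ-Myc against WT, and the 30.7% called either way in the knockout group against WT. Among 13 partners of V(D)J joining, 5 were called higher and 2 lower in Eμ-Myc against WT (median log2 fold change 0.15, against -0.05 for all genes), a share near the 55.8% of all genes called. That median has the same rounded value as Dntt in this comparison (0.1509), but Dntt is not among the 13 genes of this list. The knockout group had 0 called against Eμ-Myc, as for the other lists below, and 5 higher and 2 lower against WT. Hmgb2, a DNA-bending cofactor of the RAG cut, rose from 602 ± 237 to 2098 ± 305 in Eμ-Myc, with 1981 ± 798 in the knockout group (SD, n = 4). Xrcc6, the Ku70 subunit that holds broken ends, rose from 47.1 ± 6.14 to 164 ± 10.9 and was 153 ± 48.5 in the knockout group. The end-joining factors Paxx and Xrcc4 fell in Eμ-Myc, by 0.74 and 0.41 on the log2 scale (limma adjusted p 0.00538 and 0.0295).

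Of 15 partners and signalling genes of the pre-B cell receptor tested, 0 were called higher and 7 lower in Eμ-Myc against WT (median -0.37), and 8 had an unadjusted limma p under 0.05, as did 7821 of all 12704 genes. The largest decreases by the naming rule were Zap70, a kinase best known from T cells, at -2.04 (adjusted p 0.00782), and the kinase Fyn at -1.24 (0.00522). Zap70 was 84.7 and 103 in knockout libraries 1 and 2 and 21.9 and 21.1 in 3 and 4. T-cell markers, the myeloid sum and Fcer2a split the same way. The knockout group had 0 called higher and 2 lower against WT.

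Of 14 genes of interleukin 7 receptor signalling, receptor chains included, 10 were called lower and 1 higher in Eμ-Myc against WT. The median was -0.90, and 26.7% of all genes were called lower. The T-cell markers fell in the same comparison (13 of 13, median -3.08), and their part in this list was not tested. The survival factor Bcl2 fell by 2.08 on the log2 scale (SE 0.16, limma adjusted p 1.30e-05), and the feedback inhibitor Socs3 by 1.97 (SE 0.59, 0.0197). Socs2, of the same family of inhibitors, was the 1 that rose, from 25.1 ± 2.86 to 48.7 ± 4.54 (limma adjusted p 1.82e-04). Bcl2 was 32.9 and 28.8 in knockout libraries 1 and 2 and 2.32 in both 3 and 4, and Socs3 was 53.0 and 31.3 against 1.27 and 0.42. T-cell markers, the myeloid sum and mature B genes such as Fcer2a split the same way, and their parts were not tested. Against WT 3 genes of this list were called lower in the knockout group and 0 higher.

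Of 19 regulators of early B cells, 3 were called higher and 4 lower in Eμ-Myc against WT (median -0.15), where 55.8% of all genes were called. Foxo1, known as an activator of Rag1, Rag2 and Il7r, fell from 108 ± 23.3 to 42.0 ± 2.78 in Eμ-Myc. In the same comparison both Rag genes rose and Il7r fell. Within the knockout group Foxo1 was 58.7, 64.6, 19.8 and 22.3 in libraries 1 to 4, so there the pair with more Foxo1 was also the pair with more Rag1 and Il7r, while Rag2 overlapped between the pairs. The same pairs differed in T-cell, myeloid and mature B genes, and the part of these was not tested. Runx1 fell by 0.84 on the log2 scale (limma adjusted p 1.24e-04). Myb rose from 79.1 ± 22.6 to 232 ± 17.8 and the repressor Gfi1b from 6.06 ± 3.36 to 13.7 ± 1.10 (SD, n = 4). Against WT the knockout group had 3 higher and 2 lower.

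Other genes of the progenitor and pre-B stage did not move as 1 block with the members. Of 13 tested in Eμ-Myc against WT, 3 were called higher and 5 lower, with a median of -0.36, a share near that of all genes (55.8%). The transcription factor Sox4 rose from 18.6 ± 3.06 to 102 ± 16.0 and the scaffold protein gene Akap12 from 18.7 ± 8.93 to 115 ± 31.8. Lef1, also high in T cells, fell by 1.54 (log2, limma adjusted p 0.0222), and the tetraspanin Cd9 by 1.30 (0.00335). The knockout group had 2 higher and 0 lower against WT.

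Mature B-cell genes were lower: 10 of 11 were called lower in Eμ-Myc against WT and 0 higher (median -1.20), and 6 of 11 lower and 0 higher in the knockout group against WT, where 1395 of all 12692 genes were called lower. Fcer2a fell from 2479 ± 769 to 409 ± 165 and Cr2, the complement receptor CD21, from 140 ± 49.9 to 24.7 ± 12.3 in Eμ-Myc (SD, n = 4). In knockout libraries 3 and 4 Cr2 was at 0.11 and 0.32, against 67.6 and 62.1 in 1 and 2, so that pair was lowest in the mature genes, while in Vpreb1, Igll1 and Rag2 the values of the 2 pairs overlapped. None of the genes of these 6 lists was called in the knockout group against Eμ-Myc with limma. Of them, 1 gene of the pre-B cell receptor list and 1 of the progenitor list had an unadjusted p under 0.05.

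**Figure D4:**
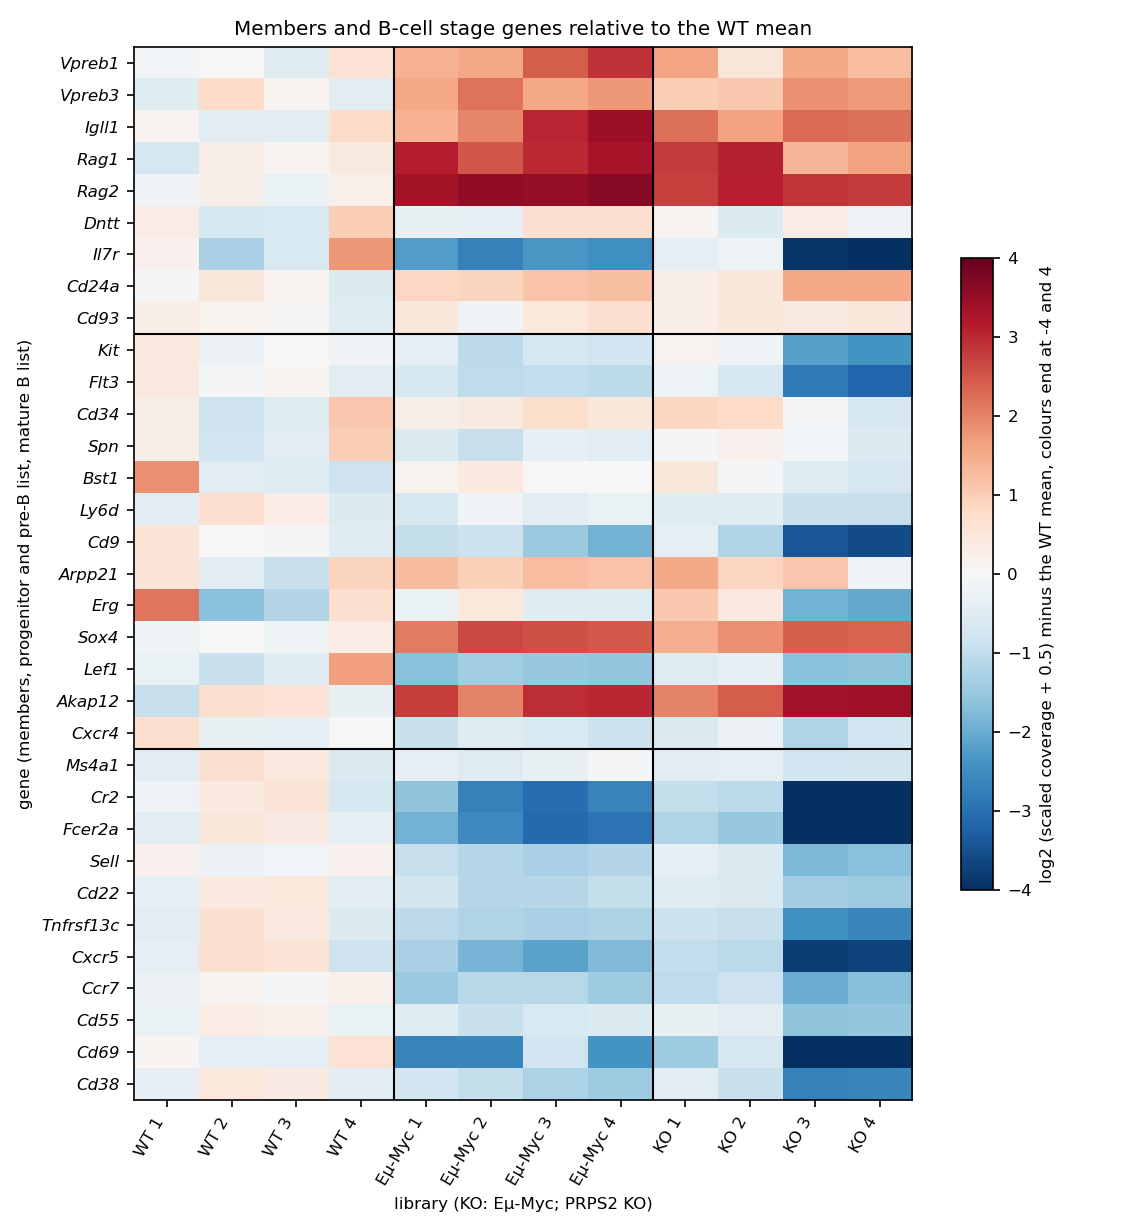
Colour gives log2(scaled coverage + 0.5) minus the WT mean, ending at -4 and 4, for the 9 members tested, the progenitor and pre-B list and the mature B list (rows) in the 12 libraries (columns). Rag2 and Sox4 are above WT in all 8 transgenic libraries, and Fcer2a and Cr2 are lowest in knockout libraries 3 and 4.

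The genes whose level ran most like a member were ranked by Pearson's r of log2(scaled coverage + 0.5) over the 12 libraries, among 12946 genes. These r describe libraries that fall into groups and share depth and cell makeup. For Igll1 the first 5 were Tmprss3 (0.94), Pear1 (0.93), Cfap300 (0.92), Fsbp (0.92) and Mei4 (0.92). For Rag1 they were Gfra1 (0.97), Padi3 (0.96), Rflna, Pcdh9 and Ren1 (each 0.95). For Il7r they were Tox, Cd28, Aqp3, Prkcq and Cd6, each at 0.99, of which Cd28 is on the T-cell marker list.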

How the data were processed

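Each deposited file gives, for 1 library, the coverage of every gene as a signal rounded to 1 decimal, per the labels and the values, and 91.6% of all values above 0 are fractional. The submitters' processing notes name mm10, DESeq and R 4.3.3 with no role. Aligner, counting step and how coverage was divided by gene length are not given in the sources used here. Coverage summed to between 1277305.5 and 1885768.9 per library.

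Libraries were scaled by an unweighted trimmed mean of log ratios (30% of ratios and 5% of means trimmed, genes of coverage 1 or more in both libraries). limma 3.58.1 in R 4.3.3 (trended, robust, two-sided) was fitted to log2(scaled coverage + 0.5) of the 8 libraries of each comparison. p-values were Benjamini-Hochberg adjusted over all genes. Exact permutation tests used all 70 arrangements. Tables and exact tests were made with pandas 2.3.3 and numpy 2.4.6 in Python 3.11.15, and plots with matplotlib 3.10.9. On simulated data for Eμ-Myc against WT, with 200 of 12439 genes changed, 64% of log2 changes of 1 and 96% of 2 were recovered, with 4.76% false calls. For the knockout group against Eμ-Myc, 48% and 86% were recovered over 12385 genes with 6.29% false calls, and against WT 47% and 78% over 12451 genes with 6.02%, both above the nominal 5%. The changed genes were drawn only from genes well above 0 in the second group. These rates therefore do not cover genes as low as Vpreb1, Igll1 and Rag2 in WT (means 0.792, 0.621 and 0.342). Each gene had 1 simulated spread for all libraries, unlike the split knockout group. The share changed was also far under the 55.8% called in Eμ-Myc against WT.

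The 10 members and all lists were chosen with earlier results of these data known. Beside the members, the text names, per list, up to 2 genes with the largest increase and up to 2 with the largest decrease among those called in Eμ-Myc against WT with a mean of at least 8, and the 5 genes most like Igll1, Rag1 and Il7r, leaving out Gm and Rik symbols. Overlapping and marker genes are named beside the results they touch. Ighm, Ighd, Trac, Trbc1, Trbc2 and Ahsp were not analysed here, and 1 gene of the B-cell lists is not reported here and was left out of their counts. The labels give biological replicates without saying what they share, so p-values measure the spread between these libraries. Same-numbered libraries were taken as pairs only in an alternative, run in every comparison, a pairing that no label gives. Those of the knockout group and Eμ-Myc deviated together (r 0.66, 0.19, 0.25 and 0.61). Other alternatives were scaling, filters, pseudocounts, all 12 libraries in 1 fit and leaving out libraries.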

Additional observations from a re-analysis of the deposited data

Results flagged for a closer look

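Of 29 groups of 4 libraries tested for a value far from the others, 1 stood out, where chance picks about 1 in 20. Igll1 was 2.71 in knockout library 2, and the other libraries of that group lay between 4.33 and 4.54. Its gap to the nearest library was 0.884 of the range of the group, above the 95% critical value of Dixon's test. Vpreb1 was lowest in the same library, at 1.25. Leaving it out kept Igll1 called against WT, where Igll1 met the filter only through the transgenic libraries.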

How the results depend on the processing

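Read depth is unknown, so errors come from the spread between libraries, and members near 0 in WT (Vpreb1, Igll1, Rag2) depend on the pseudocount in size. Of 7 members called in Eμ-Myc against WT, 7 of 7 calls held under both other scalings, no filter, both pseudocounts and the replicate block, and in each fit without 1 library (7 to 7). With all 12 libraries in 1 fit 6 were called. A filter of 10 in every library left 3 members, of which 3 were called. In the knockout group against Eμ-Myc 0 were called under each alternative, leave-one-out fits included (0 to 0), except 1 (Il7r) without knockout libraries 3 and 4, a call that says nothing of the group because those are its low Il7r libraries. In the knockout group against WT the 5 calls became 1 (of 2 tested) with the filter of 10, 3 without knockout libraries 3 and 4, 4 with the replicate block (Vpreb1 at an adjusted p of 0.0688 in limma), 6 with all 12 libraries, and 2 to 6 when single libraries were left out. The low end came without WT library 3. It was 3 without WT library 1 or knockout library 3 or 4.

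Directions turned in differences that were not called. Leaving out single libraries took Dntt from -0.065 to 0.48 in Eμ-Myc against WT, and from -0.30 to 0.25 in the knockout group against WT. Against Eμ-Myc it took Il7r from -0.40 to 0.94, Cd24a from -0.27 to 0.16 and Cd93 from -0.12 to 0.14. Signs held there but sizes moved for Igll1 (-0.75 to -0.07), Rag1 (-1.06 to -0.49) and Vpreb1 (-1.09 to -0.58). The same was so for Vpreb3 (-0.50 to -0.22) and Dntt (-0.39 to -0.06). The causes were not tested. By exact permutation tests without adjustment, Vpreb1 in the knockout group against WT had a p of 0.0571, and Rag2 against Eμ-Myc 0.0286. Total coverage scaling moved the median of all genes by -0.14 in Eμ-Myc against WT and kept the 7 calls. In the comparisons with WT the samples shared only a number (same-number r -0.42 to 0.40 in the knockout group, -0.10 to 0.27 in Eμ-Myc), and not every library correlated best with its own number. In the knockout group against Eμ-Myc every same-number r was above 0.1, and the block changed no call. There too knockout libraries 2 and 3 correlated best with another number, at 0.61 with Eμ-Myc library 1 and 0.60 with Eμ-Myc library 4.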
